A study of Arabidopsis thaliana with 12 samples.

Results

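The genes described here were 219 loci of Arabidopsis thaliana root tips whose RNA stood close to the control after 1 h of induction of the transcription factor DOF2.1 and well below it after 4 h. They were chosen by a rule on the measured values. CPM is the deposited count of a locus divided by its library's total and multiplied by 1000000. The log2 ratio at 1 h or 4 h was log2 of the mean CPM of the DEX libraries plus 0.5 over the mean CPM of the control libraries plus 0.5. Members had a mean CPM of at least 2 over 12 libraries, a log2 ratio at 1 h between -0.2 and 0.2, a log2 ratio at 4 h of -1 or less, and their highest DEX 4 h CPM below their lowest control CPM. Of 28775 loci in the files, 17491 reached the mean CPM, 550 of these had a log2 ratio at 4 h of -1 or less, and 548 of the 550 showed no overlap between DEX 4 h and control libraries. The limits at 1 h left out 204 of those loci below -0.2 and 125 above 0.2, and 219 remained.

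All libraries came from root meristems of Col-0 seedlings with a pRPS5A::DOF2.1-GR construct, in which a promoter active in dividing cells drives DOF2.1 joined to the hormone-binding part of the glucocorticoid receptor. The control libraries carried the construct too. There were 3 biological repeats for each of 4 groups, the control at 1 h and dexamethasone (DEX) at 10 µM for 1 h, 2 h and 4 h. Seedlings had grown for 5 days at 22 °C, and 300 root tips were pooled in each sample. The labels do not say whether the line was 1 clone or insertion, nor what medium the control seedlings were on when they were collected. The only control was at 1 h, so in DEX 2 h and DEX 4 h the effects of DOF2.1, of DEX itself, of handling and of the hour of harvest cannot be told apart.

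The glucocorticoid receptor part holds a fused transcription factor outside the nucleus until DEX binds it, so that the time on DEX sets the time the factor has had to act on its targets and the targets to act on theirs. DOF proteins are plant zinc finger factors that bind DNA at a short core, AAAG, and several of them work in the young vascular tissue of the root. Root tips take up sulfate, nitrate, potassium and iron through dedicated transporters and receive sugar from the phloem, and RNA of many of the genes for these steps is known to follow supply and demand.

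Library totals lay between 14142082 and 17522834 counts. Marker genes of the meristem summed to 205 to 225 CPM in the control, 190 to 199 CPM in DEX 1 h, 207 to 211 CPM in DEX 2 h and 216 to 239 CPM in DEX 4 h, and none of the 7 was at 0 in every library. The 8 xylem markers summed to 271 to 329 CPM in the control, 249 to 337 CPM in DEX 1 h, 189 to 216 CPM in DEX 2 h and 186 to 197 CPM in DEX 4 h. The 2 phloem markers, APL and SUC2, summed to 57.1 to 60.6 CPM in the control, 51.6 to 71.8 CPM in DEX 1 h, 31.8 to 37.5 CPM in DEX 2 h and 23.3 to 27.4 CPM in DEX 4 h. IRX1, IRX3 and SUC2 are both markers and members, so these sums hold values that the rule chose. The 6 xylem markers that are not members summed to 208 to 255 CPM in the control, 201 to 262 CPM in DEX 1 h, 157 to 181 CPM in DEX 2 h and 162 to 169 CPM in DEX 4 h, and were thus lower in the later DEX groups too. APL alone had 13.0 to 15.7 CPM in the control, 11.8 to 12.7 CPM in DEX 1 h, 11.9 to 13.6 CPM in DEX 2 h and 11 to 12 CPM in DEX 4 h, so most of the fall of the phloem sum was that of SUC2. In such pooled tissue, fewer cells of a type and less RNA per cell cannot be told apart, and the part of the tissue markers in the results was not tested. Replicate 3 was the lowest DEX 1 h library for 175 members, or 79.9% of them, where the same library was lowest for 51.4% of all loci with the mean CPM. Replicate 3 was also the lowest control library for 128 members, or 58.4%, against 36.8% of all loci. These libraries set part of the choice of members, and the number of members was 239 without DEX 1 h replicate 3 and 238 without control replicate 3.

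The median log2 ratio of the 219 members was -0.013 at 1 h, with 96 above 0 and 123 below, and -1.21 at 4 h. These values were used by the rule and are given as a description. At 4 h they ran from -2.758 to -1.0, with 45 members at -1.5 or less and 8 at -2 or less. Summed over the members, RNA made up 1.2%, 1.24% and 1.12% of all counts in the control libraries, 1.31%, 1.2% and 1.03% in DEX 1 h, 0.677%, 0.684% and 0.658% in DEX 2 h, and 0.451%, 0.504% and 0.477% in DEX 4 h. The DEX 2 h sums lay between the DEX 4 h sums and those of the control and DEX 1 h, with no overlap on either side. At the limit of -1 at 4 h, the nearest members inside were SEOR1 at -1.0005, SHV3 at -1.0007 and SDH1-2 at -1.0057, and the nearest loci outside were GBF3 at -0.9997, CRF10 at -0.9994 and UBC23 at -0.9984. At the upper limit at 1 h, MIOX2 and APR3 at 0.1944 and BRL3 at 0.1817 were inside, and GAD4 at 0.2054, AT5G58620 at 0.2055 and CAD5 at 0.2127 outside. At the lower limit, DUO3 at -0.1995, AT3G10720 at -0.1967 and AT1G18910 at -0.1931 were inside, and GSTU14 at -0.2008, AT1G13040 at -0.201 and AT2G43500 at -0.2023 outside.

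**Figure D1:**
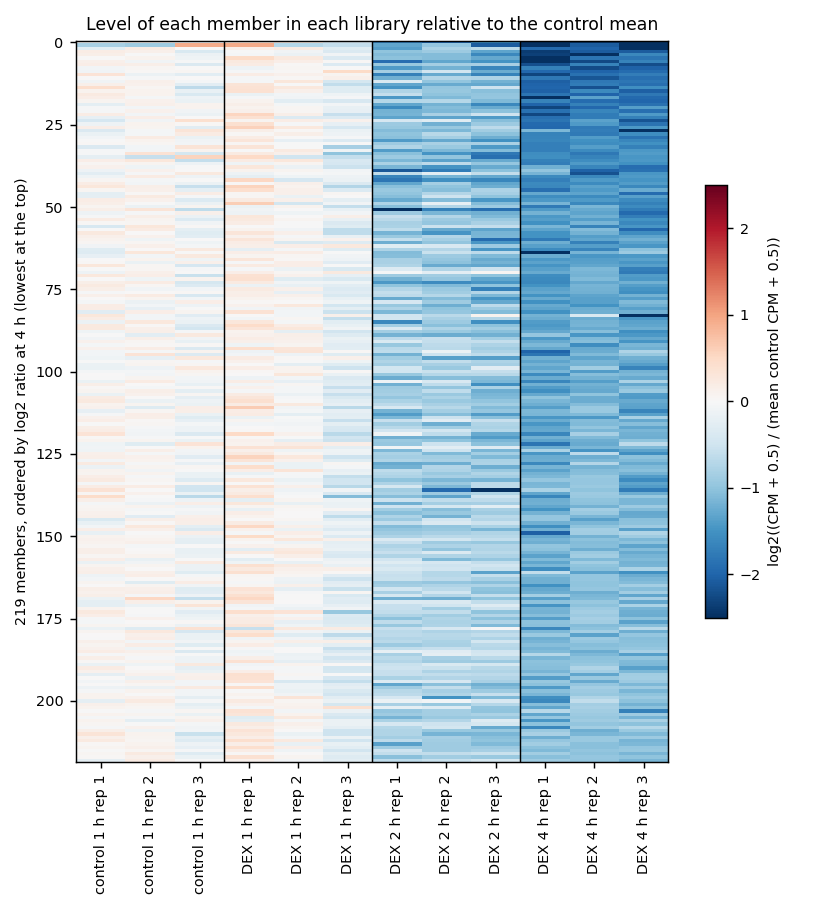
Each row is 1 of the 219 members, ordered by its log2 ratio at 4 h with the lowest at the top, and each column is 1 library; colour gives log2 of CPM plus 0.5 over the mean control CPM plus 0.5, with the scale ending at -2.5 and 2.5. The 3 DEX 2 h columns are already blue for most rows, and DEX 1 h replicate 3 is paler or bluer than DEX 1 h replicate 1 in most rows.

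The DEX 2 h libraries entered the rule only through the mean CPM, so the step between 1 h and 2 h can be tested, with the limit that one side of each comparison was used by the rule. Against the control libraries, 195 of the 219 members, or 89%, were called lower in DEX 2 h by edgeR at an adjusted p under 0.05, where 18.5% of all 19733 loci tested were called lower and 16.5% higher. No member was called higher. All 219 members had a negative log2 fold change, so none was higher at an unadjusted p under 0.05 or by DESeq2 either. The median log2 fold change of the members was -0.845, in a range of -2.147 to -0.036, beside -0.006 for all loci tested. In 207 members all 3 DEX 2 h libraries lay below all 3 control libraries, as they did in 33.1% of all loci with the mean CPM. Against the DEX 1 h libraries, 187 members, or 85.4%, were called lower in DEX 2 h, where 16.3% of all loci were, with a median log2 fold change of -0.806. In 197 members all 3 DEX 2 h libraries lay below all 3 DEX 1 h libraries, as they did in 29.5% of all loci with the mean CPM. The median member had reached 68.6% of its log2 ratio at 4 h by 2 h, with quartiles of 54.0% and 79.5%.

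The median change between DEX 2 h and DEX 4 h was smaller. In DEX 4 h, 70 members, or 32%, were called lower than in DEX 2 h, where 3.73% of all loci were lower and 3.6% higher, and the median log2 fold change was -0.424. The DEX 4 h libraries were used by the rule, so a member with little change at 2 h had to be lower at 4 h. The rule itself thus favoured a share of lower calls above that of all loci, and calls at the later step are a description. This count rested on single libraries, with 40 or 38 members called when DEX 4 h replicate 1 or replicate 3 was left out, and 34 or 38 when DEX 2 h replicate 1 or replicate 2 was. Of the members, 63 were called lower both in DEX 2 h against the control and in DEX 4 h against DEX 2 h, 132 only in the first, 7 only in the second and 17 in neither. The same combinations were not counted over all loci, so these counts only describe the members. Having a call in one step and not in the other does not show that the steps differ, which was not tested. For 11 members the log2 fold change of DEX 4 h against DEX 2 h was above 0, and none of these was called by edgeR or DESeq2 or passed an unadjusted p of 0.05. The rule worked against a rise at this step, so this is a description too.

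The 5 members with the lowest log2 fold change of DEX 2 h against the control were AT1G05650, a pectin lyase-like protein, MAN6, a mannanase of the cell wall, AT1G30730, AT3G03700, annotated as a choline transporter family protein, and AT1G29020, an EF-hand protein. AT1G05650 had 12.5, 14.3 and 7.05 CPM in the control and 10.6, 11.4 and 9.80 CPM in DEX 1 h. Levels were 1.60, 3.13 and 2.68 CPM in DEX 2 h and 3.90, 4.40 and 3.01 CPM in DEX 4 h. Its lowest mean was at 2 h, but the DEX 2 h and DEX 4 h libraries overlapped. Its log2 fold change was -2.15 ± 0.271 (SE, adjusted p = 8.67e-05) in DEX 2 h against the control. In DEX 4 h against DEX 2 h it was 0.62, a description with no test, since the rule set the level at 4 h. AT5G15950, an adenosylmethionine decarboxylase family protein of polyamine synthesis, had a log2 fold change of -1.61 ± 0.441 (SE, adjusted p = 0.0219) in DEX 2 h against the control. Its log2 fold change in DEX 4 h against DEX 2 h, 0.52, is again a description. This gene was chosen after its values were seen.

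The 5 members with the highest log2 fold change of DEX 2 h against the control were AT4G22217, EBF2, FLOT1, AT4G22305 and AT2G05250. Since the rule set their level at 4 h, their values at the later step are a description, with no test. AT4G22217, a defensin-like protein, had 9.98, 11.9 and 10.9 CPM in the control and 12.4, 11.4 and 13.1 CPM in DEX 1 h. It then had 10.6, 9.02 and 11.4 CPM in DEX 2 h and 4.31, 4.64 and 2.87 CPM in DEX 4 h. DEX 2 h and control overlapped, and the log2 fold change was -0.04 ± 0.142 (SE, adjusted p = 0.871) there and -1.38 in DEX 4 h against DEX 2 h. EBF2, an F-box protein that marks the ethylene response factor EIN3 for breakdown, had 61.1, 65.7 and 69.2 CPM in the control and 83.6, 81.3 and 55.2 CPM in DEX 1 h. Later levels were 60.9, 54.5 and 52.3 CPM in DEX 2 h and 27.4, 29.2 and 29.9 CPM in DEX 4 h. Its log2 fold change was -0.17 ± 0.110 (SE, adjusted p = 0.24) in DEX 2 h against the control and -0.95 in DEX 4 h against DEX 2 h. FLOT1, a flotillin of membrane microdomains, and AT4G22305, an alpha/beta-hydrolase, had -0.98 and -0.80 at the later step. AT2G05250, a DNAJ-domain protein, had 17.8, 31.3 and 0.0808 CPM in DEX 4 h against 29.4, 25.6 and 43.8 CPM in DEX 2 h. DEX 4 h replicate 3 was near 0 and the other DEX 4 h libraries were not. Its deposited counts were not whole in any of the 12 libraries.

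**Figure D2:**
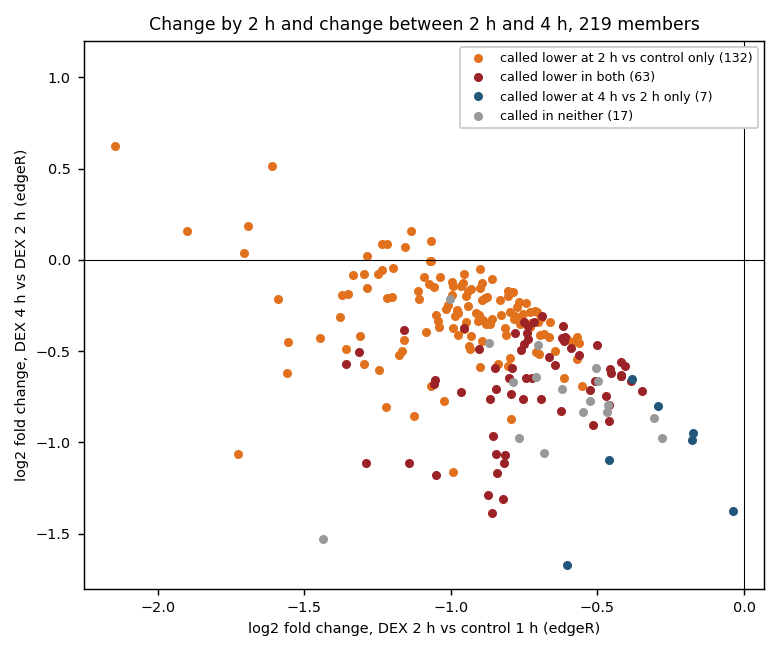
Each point is 1 of the 219 members, with its edgeR log2 fold change of DEX 2 h against the control on the x axis and of DEX 4 h against DEX 2 h on the y axis; colours show in which of the comparisons it was called at an adjusted p under 0.05. The 7 points called only at the later step lie at the right, and all points lie left of 0 on the x axis.

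Genes of sulfate uptake and assimilation formed one group among the members. SULTR1;2, the main root transporter for sulfate from the soil, had 322, 343 and 300 CPM in the control and 394, 326 and 294 CPM in DEX 1 h. Its RNA stood at 183, 164 and 133 CPM in DEX 2 h and 119, 124 and 127 CPM in DEX 4 h. The later DEX groups did not overlap with the control or DEX 1 h, and the log2 fold change of DEX 2 h against the control was -0.95 ± 0.105 (SE, adjusted p = 1.23e-05). APR1 and APR3, reductases that carry out the committed step of sulfate reduction, were members too. APR1 had 97.1, 110 and 89.7 CPM in the control and 120, 99.8 and 110 CPM in DEX 1 h. The later libraries held 66.1, 59.1 and 45.4 CPM in DEX 2 h and 36.2, 42.5 and 29.5 CPM in DEX 4 h. APR1 fell by 0.74 ± 0.150 on the log2 scale in DEX 2 h against the control (SE, adjusted p = 0.00277). APR3 had 149, 173 and 152 CPM in the control and 174, 178 and 190 CPM in DEX 1 h. On DEX for longer, levels were 128, 120 and 83.8 CPM in DEX 2 h and 61.7, 60.1 and 57.5 CPM in DEX 4 h. Its log2 fold change in DEX 2 h against the control was -0.46 ± 0.130 (SE, adjusted p = 0.015). That call was lost without control replicate 2 (adjusted p = 0.0622), with only the 2 groups compared in the fit (0.107) and with offsets for GC content and length (0.058). Between DEX 2 h and DEX 4 h, APR3 fell by 0.88, APR1 by 0.65 and SULTR1;2 by 0.37. These changes are given with no test, since the rule set the level at 4 h. SULTR3;4, a further sulfate transporter, fell by 0.84 ± 0.193 (adjusted p = 0.00343) in DEX 2 h against the control. SDI2 (AT1G04770), whose relative SDI1 restrains glucosinolate synthesis under sulfur starvation, had 24.1, 23.8 and 17.6 CPM in the control and 29.0, 23.2 and 22.3 CPM in DEX 1 h. Levels were 14.9, 13.0 and 8.34 CPM in DEX 2 h and 14.1, 8.30 and 7.31 CPM in DEX 4 h. Its log2 fold change in DEX 2 h against the control was -0.80 ± 0.262 (SE, adjusted p = 0.038), which was lost without DEX 2 h replicate 2 or 3 or control replicate 1 or 2 (highest adjusted p 0.109).

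The bases upstream of 3 of these genes are shown because DOF factors bind the core AAAG, printed in capitals here in either orientation (AAAG or CTTT). They are the 250 bases before the annotated gene start, read 5′ to 3′ on the gene's strand from the RefSeq genome TAIR10.1. The windows are chr1:29327265-29327514 (plus strand) for SULTR1;2, chr4:2324628-2324877 (plus strand) for APR1 and chr4:11659168-11659417 (minus strand) for APR3, and no other annotated gene overlaps them.
SULTR1;2: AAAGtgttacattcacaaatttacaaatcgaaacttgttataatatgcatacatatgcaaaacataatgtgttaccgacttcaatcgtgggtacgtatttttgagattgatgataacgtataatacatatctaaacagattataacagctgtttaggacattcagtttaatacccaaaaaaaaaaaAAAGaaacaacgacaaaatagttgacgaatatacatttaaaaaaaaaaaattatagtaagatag
APR1: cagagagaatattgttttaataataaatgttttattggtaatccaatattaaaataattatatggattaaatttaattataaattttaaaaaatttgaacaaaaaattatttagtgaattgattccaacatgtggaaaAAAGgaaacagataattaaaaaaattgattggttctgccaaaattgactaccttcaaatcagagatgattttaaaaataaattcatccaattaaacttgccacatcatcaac
APR3: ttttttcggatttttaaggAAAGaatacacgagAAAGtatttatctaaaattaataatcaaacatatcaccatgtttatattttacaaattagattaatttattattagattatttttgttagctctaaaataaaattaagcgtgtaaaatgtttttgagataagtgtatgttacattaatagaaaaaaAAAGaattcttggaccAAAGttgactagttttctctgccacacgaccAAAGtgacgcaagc
The core was found at 2 places before SULTR1;2, 1 before APR1 and 5 before APR3. Over the 219 members it was present in 96.3% of such windows with a mean of 3.84 matches, against 98.0% and 4.09 matches in 17419 loci with the mean CPM and an annotated window. The share of windows with the core was thus no higher in the members.

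The wider sulfur list held 12 genes, of which 4 were members. In DEX 2 h against the control, 10 of the 12 were called lower and none higher, where 18.5% of all loci tested were lower and 16.5% higher. The median log2 fold change of the list was -0.814, beside -0.006 over all loci tested. The other 8 genes of the list gave 6 of the 10 calls. None was higher at an unadjusted p under 0.05 or by DESeq2. The 2 genes not called were GGCT2;1, at 0.14 ± 0.479 (SE, adjusted p = 0.847), and LSU1, at -0.47 ± 0.253 (adjusted p = 0.164). SDI1 had 8.20, 11.5 and 6.80 CPM in the control and 16.3, 9.70 and 15.6 CPM in DEX 1 h. It then had 3.56, 3.52 and 2.22 CPM in DEX 2 h and 4.95, 2.72 and 4.44 CPM in DEX 4 h. It was not a member because its log2 ratio at 1 h was 0.624, and the sulfur response gene LSU3 was outside at 0.646. LSU1 and LSU2 had 0.662 and 0.81 at 1 h, and -0.385 and -0.996 at 4 h. The list's count rested on single libraries, with 6 without DEX 2 h replicate 3, 6 without control replicate 1 and 5 without control replicate 2, and 6 with offsets for GC content and length.

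**Figure D3:**
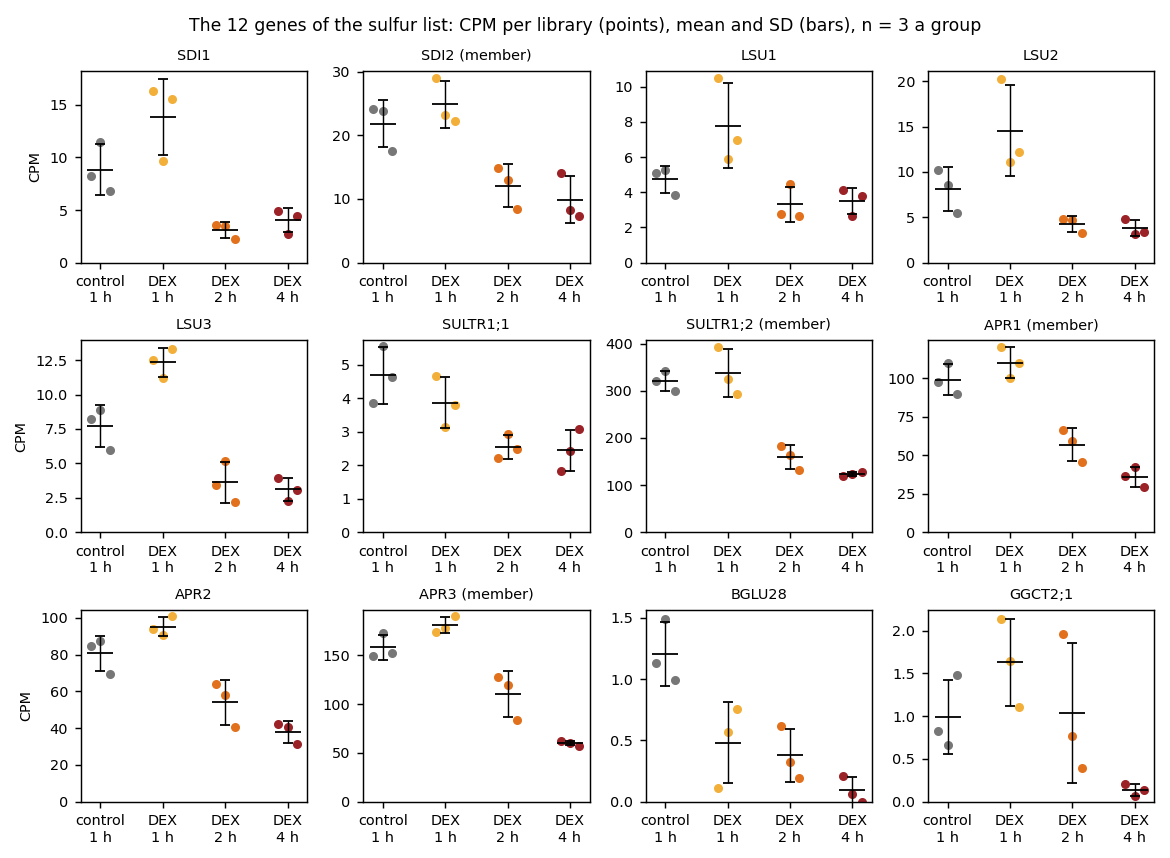
CPM of the 12 genes of the sulfur list in each library (points) with the mean and SD of 3 libraries (bars), from the control to DEX 4 h. SULTR1;2, APR1 and APR3 show 3 DEX 2 h points below every control point, and SDI1, LSU2 and LSU3 have their highest points in DEX 1 h.

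Glucosinolates, defence compounds rich in sulfur, were represented by CYP79B2 and CYP83B1, which act in turn on the branch made from tryptophan, and by the importers GTR1 and GTR2. CYP83B1 had 329, 352 and 308 CPM in the control and 407, 288 and 260 CPM in DEX 1 h. Later levels were 124, 136 and 115 CPM in DEX 2 h and 106, 116 and 106 CPM in DEX 4 h. Its log2 fold change was -1.35 ± 0.120 (SE, adjusted p = 2.67e-06) in DEX 2 h against the control. In DEX 4 h against DEX 2 h it was -0.19, a description with no test, since the rule set the level at 4 h. CYP79B2 had 90.3, 116 and 105 CPM in the control and 136, 82.4 and 81.3 CPM in DEX 1 h. Its RNA stood at 41.2, 41.3 and 38.8 CPM in DEX 2 h and 27.9, 30.6 and 31.8 CPM in DEX 4 h. CYP79B2 had a log2 fold change of -1.31 ± 0.162 (SE, adjusted p = 0.000153) in DEX 2 h against the control. GTR2 fell by 1.11 ± 0.190 (adjusted p = 0.0016) and GTR1 by 0.71 ± 0.163 (adjusted p = 0.00547) in the same comparison. Of 13 genes tested on the glucosinolate list, 5 were called lower by edgeR and by DESeq2, with a median of -0.004, and 0 were higher by either or at an unadjusted p under 0.05. Over all loci, 18.5% were called lower and 16.5% higher. Of the 5, CYP79B2 and CYP83B1 were members, and CYP79B3, SUR1 and SOT16 were not. MAM1, MAM3, BCAT4, CYP79F2 and CYP83A1, of the branch made from methionine, had log2 fold changes between 0.272 and 0.81, none of them called.

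Nitrogen genes among the members were ASN1, GDH2, NRT1.1, LHT1 and PTR1. All 5 were called lower in DEX 2 h against the control, beside 89% of all 219 members. ASN1, an asparagine synthetase known to rise when sugar is short, had 62.2, 85.7 and 75.4 CPM in the control and 82.7, 86.7 and 60.2 CPM in DEX 1 h. The later libraries held 28.4, 42.9 and 46.7 CPM in DEX 2 h and 18.9, 18.3 and 10.7 CPM in DEX 4 h. Its log2 fold change was -0.87 ± 0.242 (SE, adjusted p = 0.0207) in DEX 2 h against the control. That call was lost without DEX 2 h replicate 1 or control replicate 2 or 3 (highest adjusted p 0.0711) and with offsets for GC content and length (0.0541). In DEX 4 h against DEX 2 h the log2 fold change was -1.29, given with no test since the rule set the level at 4 h. Genes on the opposite strand overlap 55 of the members, among them ASN1, APR1, APR3, PPDK, GCL1 and MFT, and the strand setting of the counting is not stated. PTR1, a transporter of small peptides, had 55.9, 72.7 and 70.9 CPM in the control and 74.0, 64.5 and 63.5 CPM in DEX 1 h. On DEX for longer, levels were 26.7, 29.2 and 21.6 CPM in DEX 2 h and 16.3, 20.3 and 17.8 CPM in DEX 4 h. PTR1 fell by 1.31 ± 0.120 (SE, adjusted p = 2.75e-06) in DEX 2 h against the control. LHT1, an amino acid importer, fell by 0.86 ± 0.101 (adjusted p = 1.83e-05). GDH2, a glutamate dehydrogenase, averaged 1040 ± 76.5 CPM in the control, 1039 ± 91.1 CPM in DEX 1 h, 789.7 ± 71.9 CPM in DEX 2 h and 477.5 ± 67.4 CPM in DEX 4 h (SD, n = 3 each). NRT1.1, the nitrate transporter and sensor, had 226, 239 and 295 CPM in the control and 235, 224 and 238 CPM in DEX 1 h. Levels were 206, 189 and 166 CPM in DEX 2 h and 102, 139 and 112 CPM in DEX 4 h. The changes of GDH2 and NRT1.1 in DEX 2 h against the control were small, -0.35 ± 0.096 (adjusted p = 0.0104) and -0.38 ± 0.120 (adjusted p = 0.0226). Those in DEX 4 h against DEX 2 h were -0.72 and -0.66, a description with no test because the rule required a low level at 4 h. The 2 h call of GDH2 was lost without DEX 2 h replicate 1 or control replicate 2 (highest adjusted p 0.055), and that of NRT1.1 without DEX 2 h replicate 2 or 3 or control replicate 3 (0.0947). Offsets for GC content and length ended both (0.0625 for GDH2 and 0.137 for NRT1.1). On the nitrate list of 14 genes tested, 3 were called lower and 5 higher in DEX 2 h against the control, with a median of 0.024, beside 18.5% of all loci lower and 16.5% higher.

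Sugar and carbon genes numbered 11 among the members, grouped after their values were seen. In DEX 2 h against the control 10 of them were called lower, a share close to the 89% of all 219 members. The call of MIOX2, 1 of the 10, was lost without DEX 2 h replicate 1 or 2 or control replicate 1 or 2 (highest adjusted p 0.0746). SUC2, the sucrose carrier that loads the phloem, had 41.3, 47.6 and 45.8 CPM in the control and 59.1, 44.0 and 39.1 CPM in DEX 1 h. It then had 23.6, 19.2 and 23.9 CPM in DEX 2 h and 11.4, 16.4 and 12.2 CPM in DEX 4 h. It fell by 0.96 ± 0.143 (SE, adjusted p = 0.000269) in DEX 2 h against the control. Its further fall of 0.72 in DEX 4 h against DEX 2 h is given with no test, since the rule set the level at 4 h. STP4, a hexose importer, had 73.0, 72.4 and 55.8 CPM in the control and 84.3, 66.9 and 43.5 CPM in DEX 1 h. Later levels were 27.1, 27.6 and 27.2 CPM in DEX 2 h and 16.3, 19.5 and 17.9 CPM in DEX 4 h. STP4 fell by 1.25 ± 0.185 (adjusted p = 0.000608) in DEX 2 h against the control. SPS2F, a sucrose phosphate synthase, fell by 1.23 ± 0.093 (adjusted p = 1.61e-07) in DEX 2 h against the control. Its log2 fold change of DEX 4 h against DEX 2 h was -0.06, given with no test as for SUC2. SWEET16, a sugar carrier of the vacuole, BGAL4, a beta-galactosidase, and SIP1, a raffinose synthase, fell by 0.90 ± 0.175, 1.01 ± 0.184 and 0.73 ± 0.114 in DEX 2 h against the control (adjusted p = 0.00175, 0.0022 and 0.000304). PPDK, pyruvate orthophosphate dikinase, had 35.6, 35.4 and 24.7 CPM in the control and 36.7, 32.5 and 25.1 CPM in DEX 1 h. Its RNA stood at 16.3, 17.5 and 17.7 CPM in DEX 2 h and 6.58, 9.66 and 6.49 CPM in DEX 4 h. PPDK fell by 0.84 ± 0.163 (adjusted p = 0.00177) in DEX 2 h against the control. Its log2 fold change of DEX 4 h against DEX 2 h, -1.17, is a description, since the rule set the level at 4 h. The 1 member of the group not called in DEX 2 h against the control was PCK2, a phosphoenolpyruvate carboxykinase, with -0.77 ± 0.287 (adjusted p = 0.0683), which DESeq2 (0.0309) and a fit to the 2 groups alone (0.0196) did call.

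In DEX 2 h against the control, where 89% of all 219 members were called lower, so were 7 of 8 members that move ions or act in metal uptake. The exception was HAK5, the high-affinity potassium importer, which had 5.76, 5.43 and 20.2 CPM in the control and 20.7, 6.22 and 6.76 CPM in DEX 1 h. The later libraries held 3.93, 5.12 and 2.09 CPM in DEX 2 h and 0.212, 2.11 and 1.44 CPM in DEX 4 h. In HAK5, 1 control and 1 DEX 1 h library stood far above the others. Its log2 ratio at 4 h was -2.648, and without control replicate 3 it was -1.8, which would rank it 22 from the lowest of the members instead of 2. Its log2 fold change of DEX 2 h against the control was -1.44 ± 0.758 (adjusted p = 0.18), and -0.539 (0.603) without that library. FIT, named FRU in the annotation and a bHLH factor that switches on iron uptake, had 43.0, 40.6 and 24.3 CPM in the control and 47.1, 38.6 and 31.2 CPM in DEX 1 h. On DEX for longer, levels were 19.1, 19.4 and 17.6 CPM in DEX 2 h and 11.9, 15.7 and 13.3 CPM in DEX 4 h. FIT fell by 0.90 ± 0.201 (SE, adjusted p = 0.00589) in DEX 2 h against the control. Of 16 iron uptake genes tested, 3 were called lower by edgeR, FIT, BHLH38 and BTS, and 5 by DESeq2, with a median of -0.754. The 3 were a share close to the 18.5% of all loci called lower. None was higher by either or at an unadjusted p under 0.05. IRT1, the iron importer, and FRO2, the ferric reductase, had -0.93 ± 0.561 and -0.90 ± 0.461 (adjusted p = 0.239 and 0.166). FRO4, a copper reductase whose counts were not whole in any library, fell by 1.16 ± 0.289 (adjusted p = 0.0102). RAN1, the copper pump that equips ethylene receptors, fell by 0.74 ± 0.097 (adjusted p = 5.11e-05). The calcium pumps ACA2 and ACA9 fell by 0.73 ± 0.106 and 0.77 ± 0.096 (adjusted p = 0.00016 and 3.06e-05), and the glutamate receptor-like channel GLR3.4 by 0.76 ± 0.163 (adjusted p = 0.00211).

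The 12 members with the lowest log2 ratio at 4 h were, from the lowest, AT1G30730, HAK5, ASN1, cwINV6, AT4G29930, AT1G30720, AT4G22610, PPDK, PRN, MFT, AT4G37700 and GCL1. AT1G30730, a berberine bridge enzyme-like oxidase, had 43.4, 46.3 and 39.6 CPM in the control and 51.9, 51.6 and 33.0 CPM in DEX 1 h. Levels were 12.7, 10.6 and 14.5 CPM in DEX 2 h and 2.83, 7.55 and 7.45 CPM in DEX 4 h. It fell by 1.73 ± 0.249 (SE, adjusted p = 0.000693) in DEX 2 h against the control. Its neighbour and relative AT1G30720 fell by 1.14 ± 0.235 (adjusted p = 0.00249), and counts of both were not whole in 4 libraries. PRN, a pirin, had 127, 138 and 134 CPM in the control and 123, 138 and 133 CPM in DEX 1 h. It then had 49.3, 58.5 and 42.5 CPM in DEX 2 h and 40.7, 27.9 and 32.2 CPM in DEX 4 h. PRN fell by 1.36 ± 0.135 (adjusted p = 1.63e-05) in DEX 2 h against the control. GCL1, related to lanthionine synthetases, had 53.1, 52.0 and 53.2 CPM in the control and 51.9, 54.0 and 57.9 CPM in DEX 1 h. Later levels were 22.8, 31.7 and 30.6 CPM in DEX 2 h and 14.8, 11.6 and 14 CPM in DEX 4 h. Its control and DEX 1 h libraries lay close together, and the rule required this of their means. GCL1 fell by 0.85 ± 0.111 (adjusted p = 5.6e-05) in DEX 2 h against the control. These 12 were picked by their level at 4 h, so their changes in DEX 4 h against DEX 2 h are a description, with no test. At that step GCL1 fell by 1.06. cwINV6, annotated as a fructan exohydrolase, fell by 1.05 ± 0.153 (adjusted p = 0.000142) in DEX 2 h against the control and by 1.18 at the later step. MFT, named E12A11 in the annotation and related to the flowering signal FT, had counts not whole in 11 libraries. It fell by 0.82 ± 0.189 (adjusted p = 0.00361) in DEX 2 h against the control and by 1.31 at the later step. AT4G22610, a lipid transfer protein-like gene, and AT4G37700, an uncharacterized protein, fell by 1.56 ± 0.167 and 1.56 ± 0.175 in DEX 2 h against the control (adjusted p = 1.09e-05 and 1.58e-05).

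**Figure D4:**
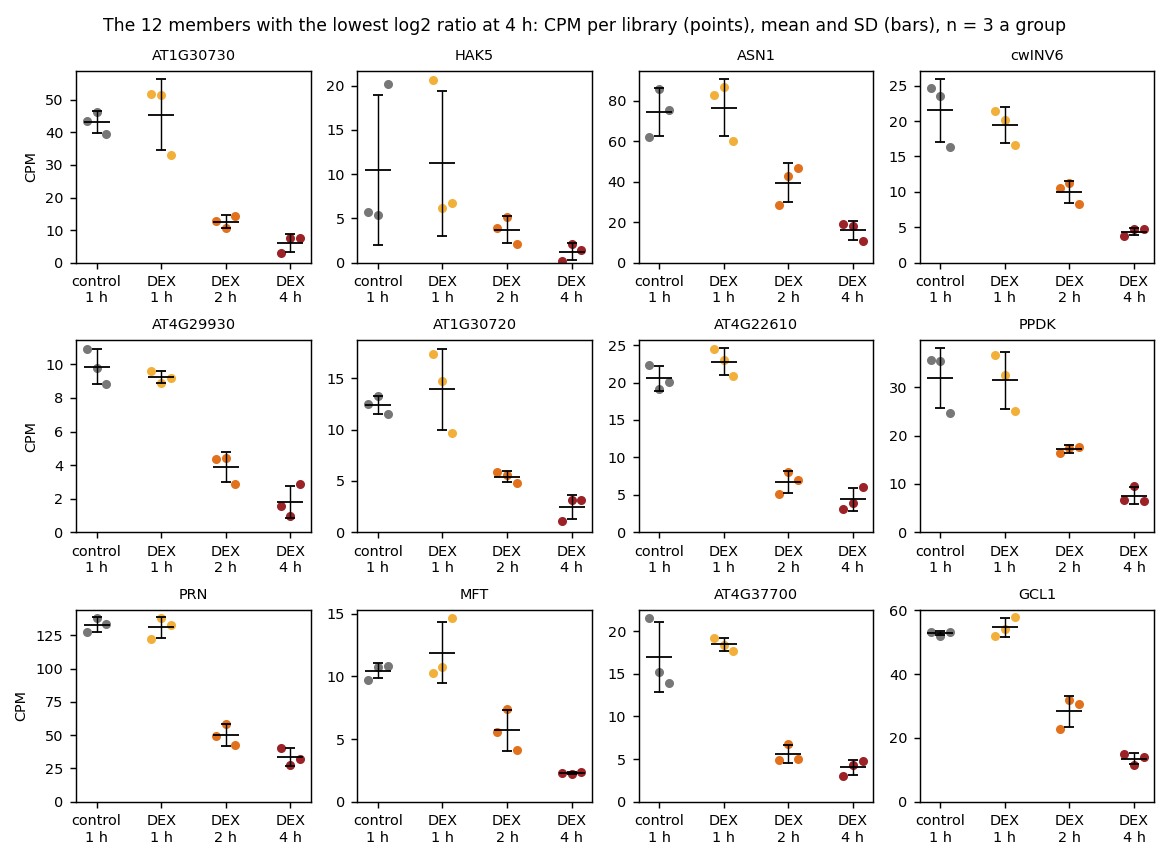
CPM of the 12 members with the lowest log2 ratio at 4 h in each library (points) with the mean and SD of 3 libraries (bars), from the control to DEX 4 h. In all 12 panels every DEX 2 h point lies below every control point, and in the HAK5 panel 1 control point and 1 DEX 1 h point, at 20.2 and 20.7 CPM, stand far above the others.

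Product names of 6 members (2.74%) matched a pattern for transcription factors, a smaller share than the 4.8% of annotated loci with the mean CPM. The pattern does not catch every such factor, and FIT is not among the 6. All 6 were called lower in DEX 2 h against the control, beside 89% of all 219 members and 18.5% of all loci. AT4G29930, a bHLH protein, had 10.9, 9.79 and 8.85 CPM in the control and 9.61, 8.90 and 9.21 CPM in DEX 1 h. Its RNA stood at 4.36, 4.41 and 2.87 CPM in DEX 2 h and 1.56, 0.991 and 2.87 CPM in DEX 4 h. Its log2 fold change was -1.29 ± 0.219 (SE, adjusted p = 0.000475) in DEX 2 h against the control. ARF19, an auxin response factor that promotes lateral roots, had 67.8, 61.9 and 46.3 CPM in the control and 69.8, 61.3 and 51.3 CPM in DEX 1 h. The later libraries held 36.7, 30.8 and 30.8 CPM in DEX 2 h and 22.3, 22.2 and 20.4 CPM in DEX 4 h. ARF19 fell by 0.79 ± 0.129 (adjusted p = 0.000507) in DEX 2 h against the control. Its log2 fold change of DEX 4 h against DEX 2 h, -0.59, is a description, since the rule set the level at 4 h. BOA, a relative of the clock factor LUX, fell by 0.61 ± 0.114 (adjusted p = 0.000809). On the clock list of 27 genes, however, 3 were called lower and 4 higher, with a median of 0.01, beside 18.5% of all loci lower and 16.5% higher. DUO3, BLH1, a homeodomain protein, and TTG2, a WRKY factor of trichomes and seed coat, fell by 0.78 ± 0.135, 0.59 ± 0.134 and 0.83 ± 0.165 (adjusted p = 0.000616, 0.00332 and 0.0013). Counts of BOA and BLH1 were not whole in 10 and 11 libraries.

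Of 9 members that make, break down or sense hormones and signal peptides, 7 were called lower in DEX 2 h against the control, and EBF2 and HLS1 were not. Of all 219 members 89% were called lower there. AHP6, named HP6 in the annotation and an inhibitor of cytokinin signalling that marks the protoxylem, had 4.52, 3.70 and 3.22 CPM in the control and 3.57, 3.37 and 3.96 CPM in DEX 1 h. On DEX for longer, levels were 1.29, 1.34 and 2.02 CPM in DEX 2 h and 0.919, 2.11 and 1.30 CPM in DEX 4 h. It fell by 1.25 ± 0.259 (SE, adjusted p = 0.00175) in DEX 2 h against the control. PSK2, a precursor of the growth peptide phytosulfokine, had 20.3, 19.8 and 22.0 CPM in the control and 22.0, 21.5 and 18.2 CPM in DEX 1 h. Levels were 6.51, 9.53 and 8.34 CPM in DEX 2 h and 3.82, 4.89 and 7.66 CPM in DEX 4 h. PSK2 fell by 1.30 ± 0.167 (adjusted p = 6.83e-05). LOX6, a lipoxygenase that feeds jasmonate synthesis in roots, fell by 1.09 ± 0.079 (adjusted p = 1.09e-07) and CYP94B1, which inactivates jasmonoyl-isoleucine, by 0.94 ± 0.204 (adjusted p = 0.00345). BRL3, a brassinosteroid receptor of vascular tissue, fell by 0.95 ± 0.160 (adjusted p = 0.000559) and BIA1, which inactivates brassinosteroids, by 0.90 ± 0.122 (adjusted p = 6.12e-05). No gene of the cytokinin, jasmonate or brassinosteroid lists was a member. On those lists 12 of 28, 9 of 34 and 2 of 10 genes tested were called lower and 3, 1 and 1 higher in DEX 2 h against the control, beside 18.5% of all loci lower and 16.5% higher. HLS1, which shapes the apical hook, had -0.68 ± 0.298 (adjusted p = 0.0881) in DEX 2 h against the control. It was called with only the 2 groups compared in the fit (0.0363) and without DEX 2 h replicate 2 (-1.02, adjusted p = 0.0276).

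Vascular genes among the members were IRX1 and IRX3, cellulose synthases of the secondary wall of xylem, and SEOa and SEOR1, neighbouring genes for the protein filaments of sieve elements. IRX3 had 39.6, 47.3 and 41.9 CPM in the control and 45.9, 36.6 and 30.5 CPM in DEX 1 h. It then had 23.3, 22.4 and 20.7 CPM in DEX 2 h and 17.5, 20.2 and 14.6 CPM in DEX 4 h. IRX3 fell by 0.91 ± 0.129 (SE, adjusted p = 0.000151) in DEX 2 h against the control. IRX1 fell by 0.94 ± 0.158 (adjusted p = 0.000553), and 2 genes on the opposite strand overlap it. IRX5, the third of these synthases, fell by 0.78 ± 0.115 (adjusted p = 0.000153) and was not a member, since its log2 ratio at 4 h was -0.904. Of the 8 xylem markers, 2 of them members, 6 were called lower in DEX 2 h against the control, where 18.5% of all loci were. The 8 had a median of -0.546, and none was higher by edgeR, by DESeq2 or at an unadjusted p under 0.05. VND7 and MYB46 were not called, at 0.42 ± 0.296 and -0.03 ± 0.204 (adjusted p = 0.296 and 0.922). SEOa fell by 0.59 ± 0.106 and SEOR1 by 0.50 ± 0.113 (adjusted p = 0.000604 and 0.00309). APL, the phloem identity factor, had -0.09 ± 0.10 (adjusted p = 0.496) beside the -0.96 of SUC2.

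Triterpene genes among the members fell in DEX 2 h and had log2 fold changes near 0 between DEX 2 h and DEX 4 h. The later values are a description with no test, since the rule set the level at 4 h. MRN1, marneral synthase, had 121, 138 and 110 CPM in the control and 142, 104 and 102 CPM in DEX 1 h. Later levels were 46.3, 58.3 and 46.3 CPM in DEX 2 h and 54.9, 56.8 and 47.7 CPM in DEX 4 h. Its log2 fold change was -1.24 ± 0.132 (SE, adjusted p = 2.79e-05) in DEX 2 h against the control and 0.09 in DEX 4 h against DEX 2 h. MRN1 lies at chr5:17053453-17058245 on the plus strand of TAIR10.1, beside 2 cytochrome P450 genes of the same biosynthetic cluster, both on the minus strand. CYP705A12, at chr5:17023502-17025361, was a member and had 54.0, 55.7 and 48.5 CPM in the control and 59.5, 46.2 and 46.3 CPM in DEX 1 h. Its RNA stood at 20.3, 28.3 and 24.3 CPM in DEX 2 h and 28.6, 25.3 and 24.0 CPM in DEX 4 h. CYP705A12 fell by 1.07 ± 0.118 (adjusted p = 1.5e-05) in DEX 2 h against the control. CYP71A16, at chr5:17031024-17033800 between them, was not a member, with 84.7, 100 and 99.8 CPM in the control, 83.9, 72.1 and 76.5 CPM in DEX 1 h, 54.0, 73.2 and 76.1 CPM in DEX 2 h and 105, 96.5 and 93.4 CPM in DEX 4 h. Its DEX 4 h libraries overlapped the control. PEN1, which makes arabidiol in roots, and SQP2, annotated as a squalene monooxygenase, fell by 1.00 ± 0.149 and 1.29 ± 0.195 (adjusted p = 0.000306 and 0.000695) in DEX 2 h against the control. They had -0.12 and 0.02 in DEX 4 h against DEX 2 h.

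**Figure D5:**
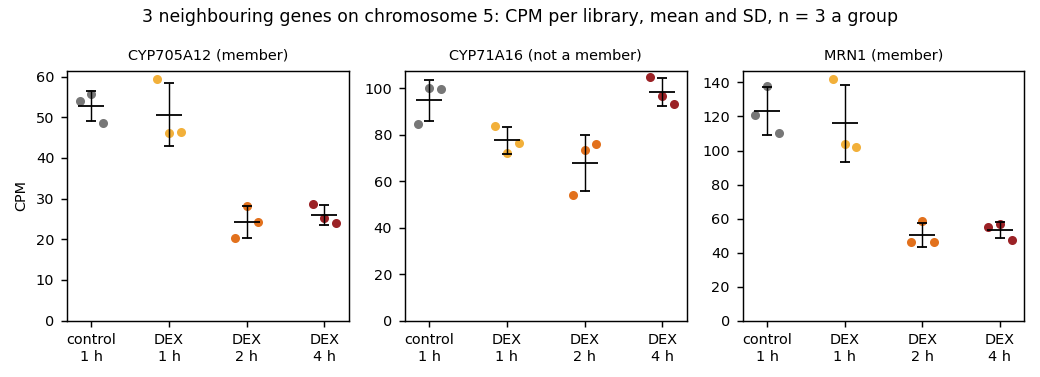
CPM of CYP705A12, CYP71A16 and MRN1 in each library (points) with the mean and SD of 3 libraries (bars), from the control to DEX 4 h. CYP705A12 and MRN1 are low in DEX 2 h and DEX 4 h, and CYP71A16 stands between 93.4 and 105 CPM in DEX 4 h.

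Of 7 members of immune signalling, grouped after their values were seen, 6 were called lower in DEX 2 h against the control, beside 89% of all 219 members. The 7 included IOS1, PEPR1, the receptor for Pep danger peptides, CRK29, and FRK1, a receptor kinase used as a marker of early immune signalling. PEPR1 had 74.8, 78.1 and 70.1 CPM in the control and 77.4, 81.2 and 63.4 CPM in DEX 1 h. The later libraries held 40.8, 43.3 and 43.5 CPM in DEX 2 h and 25.7, 36.7 and 41.1 CPM in DEX 4 h. PEPR1 fell by 0.76 ± 0.120 (SE, adjusted p = 0.000381) in DEX 2 h against the control. IOS1 fell by 0.70 ± 0.159 (adjusted p = 0.00543) and CRK29 by 0.46 ± 0.101 (adjusted p = 0.00271). FRK1 had 2.32, 3.04 and 4.45 CPM in the control and 3.45, 3.77 and 3.55 CPM in DEX 1 h. On DEX for longer, levels were 2.33, 2.56 and 1.30 CPM in DEX 2 h and 0.566, 0.991 and 0.342 CPM in DEX 4 h. FRK1 had a log2 fold change of -0.60 ± 0.295 (adjusted p = 0.122) in DEX 2 h against the control, and its DEX 4 h libraries, set by the rule, lay below those of DEX 2 h. Root hair genes were IRE, a kinase of root hair elongation, and SHV3, a wall protein of root hairs, which fell by 0.85 ± 0.135 and 0.90 ± 0.121 (adjusted p = 0.000229 and 0.000124) in DEX 2 h against the control. Both were grouped after their values were seen. Of 8 root hair and epidermis markers, 0 of them members, 3 were called lower there, with a median of -0.239, beside 18.5% of all loci. The markers RSL4, EXP7 and EXP18 had 0.076, 0.049 and -0.017 and were not called.

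Some protein families were picked out after the members were seen, and are given as counts with no test. Proteins with a C1 domain, a cysteine- and histidine-rich fold, made up 10 of the 219 members (4.57%) and 84 of the annotated loci with the mean CPM (0.482%). In DEX 2 h against the control 9 of the 10 were called lower, beside 89% of all 219 members. That count was 6 to 10 with 1 library left out, with 6 without DEX 2 h replicate 3, where AT4G02180, AT5G43520 and AT5G59930 lost the call. AT5G59930 was also lost by DESeq2 (0.0622) and with offsets for GC content and length (0.164). Their log2 ratios at 4 h ran from -1.404 to -1.012. Of 12 berberine bridge enzyme-like loci with the mean CPM 3 were members (1.37% of members and 0.0689% of annotated loci). Of 8 MD-2-related lipid recognition proteins 3 were (1.37% and 0.0459%), and of 13 multidrug resistance-associated ABC transporters 4 (1.83% and 0.0746%). The transporters included the neighbours ABCC3 and ABCC6, which fell by 0.62 ± 0.105 and 0.88 ± 0.210 in DEX 2 h against the control (SE, adjusted p = 0.000423 and 0.00447; for ABCC6 0.0524 with offsets for GC content and length). Pentatricopeptide repeat proteins, which process RNA of plastids and mitochondria, gave 7 members of 208 such loci (3.2% of members and 1.19% of annotated loci). Reads of close relatives could have been shared between family members, and counts of 51 members were not whole in at least 1 library.

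The members lay on chromosomes 1 to 5 in numbers of 60, 23, 40, 36 and 60. A second member stood within 10000 bases of 18 members, or 8.22%, and a member stood within that distance of 4.91% of the other loci with the mean CPM. There were 9 such pairs, of which 7 were next to each other in the annotation, and in all 7 both genes were of one protein family. Besides those already named these were WAKL4 with WAKL5, AT1G29020 with AT1G29025, AT1G51790 with IOS1, and AT3G46270 with AT3G46280. AT3G46280, a kinase-like protein, had 256, 262 and 217 CPM in the control and 214, 239 and 217 CPM in DEX 1 h. Levels were 148, 129 and 145 CPM in DEX 2 h and 108, 117 and 107 CPM in DEX 4 h. AT3G46280 fell by 0.75 ± 0.083 (SE, adjusted p = 8.63e-06) in DEX 2 h against the control. WAKL5, a wall-associated kinase, was not called there, at -1.0 ± 0.429 (adjusted p = 0.0942), except by DESeq2 (0.0287). The longest annotated transcript of a member had a median of 2198 bases, against 2000 for the 327 other annotated loci lowered at 4 h and 1777 for all annotated loci with the mean CPM, with median GC contents of 41.69%, 41.42% and 41.39%. Length moved with membership, and its part was examined only through the offsets for GC content and length, with which 177 members in place of 195 were called lower in DEX 2 h against the control.

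Short motifs, 13 with the DOF core, were counted on both strands of the same upstream windows. The W-box core TTGAC, bound by WRKY factors, was in 51.6% of members and 45.2% of all loci, the G-box CACGTG in 11% and 7.33%, and CGCGT, bound by CAMTA calcium-response factors, in 12.3% and 7.55%. GAGAC, the core of a sulfur-response element, was in 27.4% of members and 25% of all loci, and in 3 of the 12 genes of the sulfur list. The abscisic acid element core ACGTGNC was in 11.9% of members and 9.44% of all loci, and TGACG, bound by TGA factors, in 21.0% and 19.1%. Other motifs were less frequent in members. A pair of DOF cores at a fixed spacing was in 3.2% of members and 4.43% of all loci, the CCA1 site AAAAATCT in 4.11% and 6.8%, the telo-box AAACCCTA in 1.37% and 3.61%, and the GCC-box GCCGCC in 1.37% and 1.98%. The evening element AAAATATCT was in 2.28% and 2.4%, and the heat shock element core GAANNTTC in 9.13% and 9.19%. These shares describe letters in 250 bases and were not tested.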

How the data were processed

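Each of the 12 deposited files held expected counts, estimated per locus and not always whole, with 82.2% to 83.3% of values whole. Per the submitters' processing notes, CASAVA, GSNAP, HTSeq and edgeR were used on build TAIR10; their order, versions and strand setting are not given in the sources used here. Reads were made with a stranded kit, per the labels' protocols. Counts were rounded and tested with edgeR 4.0.16 in R 4.3.3 (filterByExpr, TMM, robust quasi-likelihood fit to all 12 libraries with group as its term). P-values were adjusted by Benjamini-Hochberg over all 19733 loci tested, which held 99.95% of counts, and calls were made under 0.05. All 219 members were tested. The common biological coefficient of variation was 8.8%. CPM in the text use library totals without TMM. The scripts were tested on simulated counts with known changes. DESeq2 1.42.0, other scalings and filters, a replicate term, offsets for GC content and length, and leaving out each library were alternatives.

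Names, coordinates and sequences came from RefSeq TAIR10.1, which matched 28009 of 28775 loci by locus tag and all 219 members. Upstream windows of 250 bases were read from that genome. The planned windows of 300 bases around the start were not used here. Of the members, 55 overlap a gene on the opposite strand.

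The members and the 20 pathway and marker lists were chosen with earlier results of these data known. Named were the 12 members with the lowest log2 ratio at 4 h, list members, members matching the transcription factor pattern, the 5 with the lowest and the 5 with the highest change in DEX 2 h against the control, and those at the limits of the rule. Role groups, families, neighbours, the GAGAC motif and the offsets for GC content and length were chosen after values were seen. Nothing shows separate cultures behind the biological repeats, so p-values measure the spread between these samples.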

Additional observations from a re-analysis of the deposited data

Results flagged for a closer look

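DEX groups at successive times were compared directly. In DEX 2 h against DEX 1 h, 187 of the 219 members (85.4%) were called lower, beside 16.3% of all loci, and in DEX 4 h against DEX 2 h 70 members (32%) were, beside 3.73% of all loci. The rule used the DEX 1 h and DEX 4 h values, so neither count is independent of the choice of members. At the later step 7 members were called lower that had not been called in DEX 2 h against the control. Since the rule required a low level at 4 h, these are given as a description. Their log2 fold changes of DEX 4 h against DEX 2 h were -1.67 for FRK1, -1.1 for RNS1, -1.38 for AT4G22217, -0.95 for EBF2, -0.65 for PAL4, -0.8 for AT4G22305 and -0.98 for FLOT1. RNS1, a secreted ribonuclease, had 10.3, 4.83 and 8.27 CPM in DEX 4 h against 15, 19.6 and 15.3 CPM in DEX 2 h. PAL4, a phenylalanine ammonia-lyase, had 17.3, 18.3 and 14.4 CPM in DEX 4 h against 28.2, 27.8 and 23.1 CPM in DEX 2 h.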

How the results depend on the processing

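The number of members, 219, was 123 with limits of -0.1 and 0.1 at 1 h, 179 with TMM-scaled CPM (169 shared), and 194 to 257 with single libraries left out, of which 147 (without DEX 1 h replicate 1) to 209 (without DEX 4 h replicate 2) were among the 219; without control replicate 1 it was 164. In DEX 2 h against the control, 178 to 192 members were called lower with 1 library left out, and in DEX 2 h against DEX 1 h 166 to 198. In DEX 4 h against DEX 2 h the range was 34 to 60, and it was 40 and 38 without DEX 4 h replicates 1 and 3 and 34 and 38 without DEX 2 h replicates 1 and 2. No member was called higher in DEX 2 h against the control in any of these fits. The sulfur list gave 5 to 10 calls with 1 library left out, 6 with offsets for GC content and length and 6 among its genes that are not members. Same-numbered libraries deviated together only weakly, with r from -0.108 to 0.149 over 18 pairs and 3 pairs over 0.1, so the numbers are not taken to pair them, although 8 of 12 libraries correlated best with their own number. With the replicate block, 199, 191 and 81 members were called lower in the 3 comparisons, the sulfur list gave 10, and of 100 named members none lost its call and AT1G55430 gained one. The sign of EBF2 in DEX 2 h against the control turned to 0.031 with offsets for GC content and length, and that of AT4G22217 ran from -0.105 to 0.049 with 1 library left out. Of 89 named members called lower in DEX 2 h, 12 lost the call in at least 1 fit without a library. The cause was not tested for any of these changes. Counts of a member went down to 1 in a library, and low members are limited by counting error.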

Other observations

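Of the lists with no member among them, some held calls in both directions in DEX 2 h against the control, and others in 1 direction or none. Over all loci 18.5% were called lower and 16.5% higher. Of the touch and wounding genes 6 of 16 were called higher and 2 lower, with a median log2 fold change of 0.476. Flavonoid synthesis had 5 of 11 called higher and 0 lower by edgeR, with a median of 0.41, and DESeq2 called 6 higher and 0 lower. Gibberellin genes had 4 of 16 higher and 3 lower, cold and dehydration genes 2 of 15 higher and 5 lower, and ethylene synthesis genes 1 of 9 higher and 2 lower. The gibberellin and ethylene synthesis counts lie near the shares over all loci. All 4 root cap markers were called lower, with summed levels of 62.2 to 71 CPM in the control, 47.9 to 54.2 CPM in DEX 1 h, 43 to 51.1 CPM in DEX 2 h and 60.4 to 62.6 CPM in DEX 4 h, a course unlike that of the members. Endodermis markers had 4 of 10 called lower and 1 higher, root hair and epidermis markers 3 of 8 lower, the 7 meristem markers 2 lower and 2 higher, and green shoot markers, summing to 9.4 to 11.9 CPM in DEX 4 h and 5.35 to 9.15 CPM in the control, had 2 genes tested and none called.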
